A study of Mus musculus with 4 samples.

Results

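H3K9me2, the dimethylation of lysine 9 on histone H3, was examined at the promoters of 80 genes named for CD antigens, out of the 26354 promoters for which read counts were deposited. The members were taken by their symbol alone: Cd, a number, at most 1 letter and at most 1 further digit, with the Cd209 lectins left out. CD antigens that carry another symbol, such as Ptprc, the leukocyte common antigen, were thus not among the 80 and are described separately at the end. The tissue was aortic media of C57Bl/6J males, and fat, endothelium and adventitia had been stripped from it, the last 2 by hand. No treatment was named, and neither the age nor the number of mice was given in the sources used here. Each of 2 independent experiments, v102 and v134, contributed a pair of libraries, 1 from H3K9me2 ChIP and 1 from input, chromatin sequenced without immunoprecipitation. The ChIP libraries held 162233 and 229605 reads over all promoters and the input libraries 619100 and 1084349. The CD promoters had medians of 5 and 5 ChIP reads and of 20 and 37 input reads in v102 and v134, so single promoters were measured with low precision. All intervals below are at 95% and cover counting error only, so they leave out the spread between experiments. The reads carried no molecular identifiers, so copies of a single molecule could not be told apart, and counting error may be larger than shown. The p-values rest on the spread between 2 libraries of each kind.

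CD antigens are surface proteins that were numbered as antibodies against leukocytes were collected. Many of them are receptors made by T cells, B cells or phagocytes alone, whereas others, among them several tetraspanins, are displayed by nearly every cell type. H3K9me2 is written mainly by the methyltransferases Ehmt1 and Ehmt2 and is a mark of silent genes in facultative heterochromatin. On general knowledge of where the antigens are made, 50 of the 80 genes were classed as leukocyte-restricted, 13 as widely expressed and 17 as mixed or other. No RNA was measured in these samples, so neither the classes nor the purity of the tissue could be checked by expression. In bulk chromatin, more marked cells and more mark per cell cannot be told apart.

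To show what the promoters of both classes look like, the 200 bases before the RefSeq start site (GRCm38.p6) are given for 3 restricted antigens with high H3K9me2 and 3 widely expressed ones with low H3K9me2, read 5′ to 3′ with each CG dinucleotide in capitals. The restricted ones are Cd48 (chr1:171681792-171681991 on the plus strand), Cd8a (chr6:71373227-71373426 on the plus strand) and Cd53 (chr3:106790150-106790349 on the minus strand). The widely expressed ones are Cd9 (chr6:125494761-125494960 on the minus strand), Cd55 (chr1:130462745-130462944 on the minus strand) and Cd164 (chr10:41519300-41519499 on the plus strand).
Cd48: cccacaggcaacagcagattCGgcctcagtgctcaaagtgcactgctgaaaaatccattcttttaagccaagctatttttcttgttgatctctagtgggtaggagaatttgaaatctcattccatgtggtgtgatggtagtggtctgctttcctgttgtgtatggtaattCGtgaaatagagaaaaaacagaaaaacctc
Cd8a: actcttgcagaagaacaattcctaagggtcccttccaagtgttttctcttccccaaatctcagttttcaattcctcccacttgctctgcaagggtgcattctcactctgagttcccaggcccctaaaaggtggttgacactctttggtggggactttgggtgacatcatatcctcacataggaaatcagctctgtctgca
Cd53: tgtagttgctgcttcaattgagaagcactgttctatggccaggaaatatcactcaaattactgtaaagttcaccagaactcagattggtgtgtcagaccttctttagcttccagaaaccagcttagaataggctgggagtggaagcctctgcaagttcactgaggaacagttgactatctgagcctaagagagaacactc
Cd9: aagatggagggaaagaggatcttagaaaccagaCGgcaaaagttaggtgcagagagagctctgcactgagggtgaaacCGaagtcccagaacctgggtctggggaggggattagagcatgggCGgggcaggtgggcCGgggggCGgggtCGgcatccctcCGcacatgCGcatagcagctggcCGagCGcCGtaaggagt
Cd55: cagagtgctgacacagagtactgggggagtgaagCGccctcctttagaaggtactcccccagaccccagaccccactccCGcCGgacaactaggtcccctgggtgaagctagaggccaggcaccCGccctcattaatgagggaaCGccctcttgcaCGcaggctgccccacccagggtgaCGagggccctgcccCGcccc
Cd164: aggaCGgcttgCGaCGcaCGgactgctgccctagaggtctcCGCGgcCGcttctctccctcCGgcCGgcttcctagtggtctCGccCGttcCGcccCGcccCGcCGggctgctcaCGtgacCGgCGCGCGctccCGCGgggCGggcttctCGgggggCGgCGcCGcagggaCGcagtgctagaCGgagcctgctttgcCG
The Cd48 stretch holds 2 CG dinucleotides and those of Cd8a and Cd53 hold 0, whereas Cd9 has 11, Cd55 has 8 and Cd164 has 30. RefSeq promoters were found for 55 of the 80 genes. The median was 2 CG in the 33 restricted promoters, 11 in the 13 widely expressed ones, 5 in the 9 mixed ones and 9 over the 15151 symbols of the table with a RefSeq promoter. GGGCGG on either strand, the core of the GC box, which overlaps the CG count, was present in 3 of 33 restricted promoters (9.09%), 9 of 13 widely expressed ones (69.2%), 3 of 9 mixed ones and 43.0% of all. TATAAA on either strand was present in 1 restricted promoter, that of Cd177, in 0 of the others and in 9.17% of all.

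To ask which CD promoters were marked, ChIP was compared with input in edgeR (quasi-likelihood test, p-values adjusted after Benjamini and Hochberg over the whole table), and fold changes are relative to the input after TMM scaling. The scaling sets ChIP and input to a common level over all promoters. Above and below input thus mean relative to that level, not an absolute gain or loss of the mark. H3K9me2 was above input at 10 of the 80 promoters (12.5%), against 18.6% of all promoters. These were Cd48, Cd8a, Cd53, Cd163l1, Cd84, Cd33, Cd163, Cd226, Cd5l and Cd3d, each a leukocyte-restricted antigen. It was below input at 8 promoters (10%), against 17.0% of all, namely Cd63, Cd7, Cd14, Cd9, Cd276, Cd4, Cd55 and Cd164. The shares of members called were thus under the background in both directions, and the list as a whole did not stand out by its calls. At an unadjusted p under 0.05 there were 13 promoters above and 12 below. With library totals in place of TMM the split was 8 above and 11 below (16.3% and 21.5% of all promoters), and Cd3d and Cd5l lost their calls. A fit without 1 library leaves a single library of that kind, so fold changes are given in place of numbers of calls. Over these fits the log2 fold change was 2.00 to 2.85 for Cd48, 0.91 to 1.92 for Cd226 and 0.58 to 1.39 for Cd3d. The calls of Cd226, Cd3d and Cd5l were lost in at least 1 of these fits. The number of calls over the whole table also changed between them. The calls below input depended on the fit. DESeq2 gave an adjusted p at 27 of the 80 members. None of the 8 was among these, so DESeq2 could not call them and its 0 calls below do not bear on them. At 2 members the unadjusted p was under 0.05 in DESeq2. Over the whole table it called 27 promoters below input (0.102% of all), with an adjusted p given at 8471. A fit with the experiment as replicate block called 2, Cd276 and Cd164 (8.30% of all promoters). Without either input library each of the 8 lost its call, as did most promoters below input in the whole table. Over the fits without 1 library the log2 fold change was −7.83 to −2.11 for Cd164, −2.79 to −1.61 for Cd276 and −7.49 to −1.20 for Cd4. The values −7.83 and −7.49 come from the fit without the ChIP library of v134, where the remaining ChIP library had 0 reads at both promoters. They rest on that 0 and do not measure the size of a difference.

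The restricted antigens lay higher than the widely expressed ones. H3K9me2 was above input at 10 of the 50 restricted promoters (20%) and below at 3 (6%), at 0 and 5 (38.5%) of the 13 widely expressed ones, and at 0 and 0 of the 17 mixed ones. The share of restricted promoters above input was thus near the 18.6% of all promoters, and their share below was under the 17.0% of all. The log2 H3K9me2/input ratio, in which reads are scaled by the library's total over promoters with 1 read added, had a median over members of 0.30 for restricted, −0.74 for widely expressed and −0.42 for mixed antigens, against −0.31 for all promoters. The median of the restricted antigens exceeded that of the widely expressed ones by 1.64 in v102 and by 1.16 in v134, and by 1.04 in the mean of both. Summed over members, restricted promoters held 889 ChIP and 3015 input reads, 1.28 times the ratio of all promoters, and widely expressed ones 64 and 735, 0.379 times that ratio. The ratio of restricted to widely expressed antigens was 4.74 (interval 3.02 to 7.43) in v102 and 2.72 (1.95 to 3.78) in v134, and both intervals lie above 1. Mixed antigens were in between, with 0.688 times the ratio of all promoters. The members are not replicates and several share a locus, so no p was given to this difference. It was 0.58 with 5 reads added in place of 1, and 0.62 once the trend with the window's GC content was taken out.

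**Figure D1:**
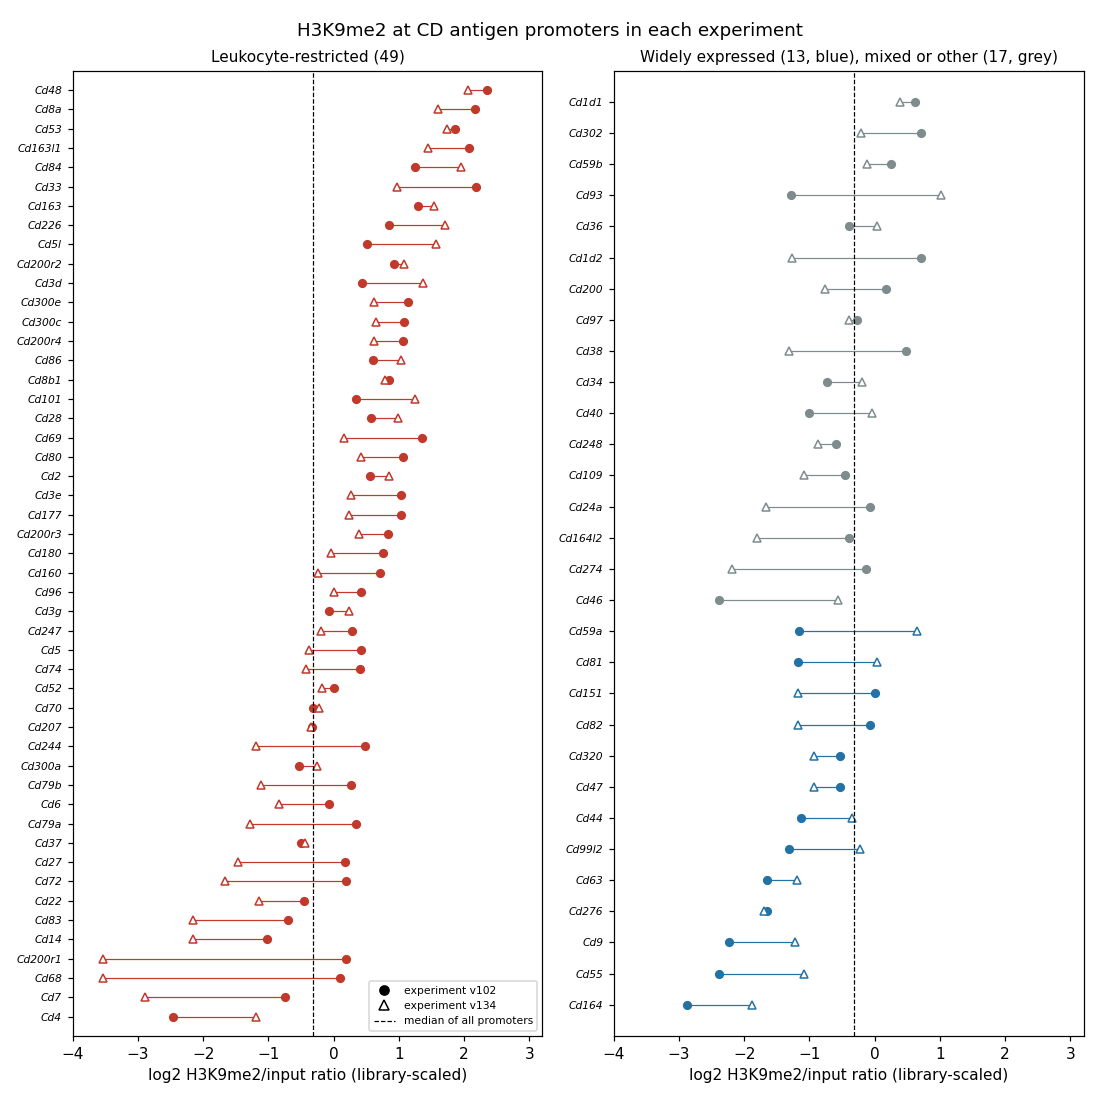
Log2 H3K9me2/input ratio (x axis, scaled by library totals) of 79 of the 80 CD antigen promoters (y axis), with a circle for experiment v102, a triangle for v134 and a line joining them. The dashed line marks the median of all promoters, −0.31, and the widely expressed antigens (blue) lie mostly to its left, while Cd48, Cd8a and Cd53 (red) lie to its right in both experiments.

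**Figure D2:**
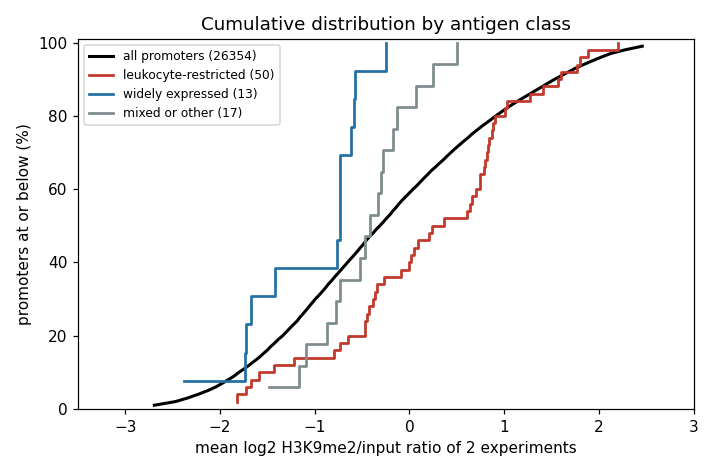
Share of promoters at or below each mean log2 H3K9me2/input ratio, for all 26354 promoters (black) and the 50 restricted (red), 13 widely expressed (blue) and 17 mixed (grey) antigens. The curve of the restricted antigens lies to the right of the widely expressed ones, whose highest member, Cd59a, is at −0.25.

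The classes overlapped at single promoters. Of the restricted antigens, 32 of 50 lay above Cd59a, a complement inhibitor and the highest of the widely expressed antigens. The median of all promoters was exceeded by 33 of 50 restricted, 1 of 13 widely expressed and 7 of 17 mixed antigens. The top quartile of both experiments held 11 of the 50 restricted antigens (22%), 0 of the 13 widely expressed and 0 of the 17 mixed ones, against 17.9% of all promoters. The experiments often differed at a single promoter, since 27 of the 80 lay on opposite sides of the all-promoter medians of v102 and v134. No member had 0 ChIP reads in both experiments, and 8 had 0 in 1 experiment, a count that allows up to 3 reads.

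The tetraspanins, small proteins with 4 membrane spans that organise other receptors in the membrane, include both classes. Cd53 is made by leukocytes and is the only tetraspanin of the list above input. It had 20 and 23 ChIP reads in v102 and v134 and 21 and 33 input reads (log2 fold change 1.92 ± 0.39 SE, edgeR adjusted p = 1.4e-05). The other leukocyte tetraspanin, Cd37, which is most abundant on B cells, had 4 and 4 ChIP reads against 26 and 31 input reads (adjusted p = 0.453). Cd53 and Cd37 thus differed, with a ratio between them of 5.67 (2.45 to 13.2).

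The 5 widely expressed tetraspanins had mean log2 ratios from −1.73 (Cd9) to −0.58 (Cd81), and 2 of them were below input, against 17.0% of all promoters. Cd9, known for its part in membrane fusion, had 0 and 3 ChIP reads against 17 and 43 input reads, and was below input (−2.01 ± 0.79, adjusted p = 0.0355). Cd63, a protein of lysosomes and exosomes, had 1 and 3 against 23 and 42 and was also below (−1.74 ± 0.72, adjusted p = 0.0454). Both calls were lost with the replicate block (adjusted p = 0.0962 and 0.0926). For Cd63 the annotated start nearest in RefSeq lay 8356 bases from the GENCODE start, so which start was counted is uncertain.

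Cd81, part of the B cell coreceptor but present on most cells, had 2 and 7 ChIP reads against 25 and 36 input reads. Cd151, a partner of laminin-binding integrins, had 4 and 2 against 18 and 31, and Cd82, a suppressor of cell motility, 4 and 2 against 19 and 31. None of these 3 passed the test (adjusted p = 0.495, 0.386 and 0.362). In every list the higher promoter of a pair was set over the lower, so each pair ratio exceeds 1 by construction. No count of intervals was adjusted for the number of pairs, and the pairs quoted singly are often the ends of a list. Of the 21 pairs of tetraspanins, 6 had an interval of their ratio above 1, and each of the 6 was Cd53 over another member. Cd53 over Cd9 was 15.9 (4.67 to 54.3) and Cd53 over Cd81 was 5.40 (2.41 to 12.1), without adjustment for the number of pairs. Among the other 6 tetraspanins no pair was resolved at this depth.

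**Figure D3:**
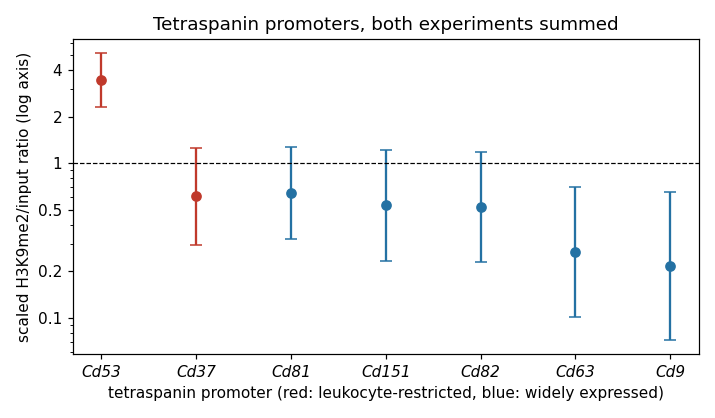
H3K9me2/input ratio of the 7 tetraspanin promoters relative to all promoters (y axis, log scale; reads summed over both experiments), with 95% counting intervals as bars. Cd53 lies near 3.46 with its interval above 1 (dashed line), and those of Cd63 and Cd9 lie under 1.

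The T cell receptor complex and its coreceptors had calls in both directions. Of 11 members, H3K9me2 was above input at 2 (Cd8a and Cd3d) and below at 2 (Cd4 and Cd7). Each is a share of 18.2%, close to the 18.6% and 17.0% of all promoters, and the median log2 ratio was 0.09. Cd8a, the coreceptor chain of cytotoxic T cells, had 19 and 22 ChIP reads against 16 and 35 input reads (1.96 ± 0.40, adjusted p = 1.37e-05). Cd4, the coreceptor of helper T cells, had 0 and 3 against 20 and 42 (−2.07 ± 0.79, adjusted p = 0.0288), a call that the replicate block ended (adjusted p = 0.0843). The 2 coreceptors of T cells thus stood near opposite ends of the restricted class, with Cd8a 16.6 times (4.86 to 56.8) the ratio of Cd4. The second CD8 chain, Cd8b1, had 8 and 10 ChIP reads against 18 and 29 and did not pass the test (adjusted p = 0.156). It lay lower than Cd8a, by a factor of 2.10 (1.06 to 4.15), and its window overlaps that of Smyd1, a muscle methyltransferase gene, so the 2 share reads.

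The CD3 chains, the signalling subunits of the receptor, are encoded side by side. Cd3d had 10 and 17 ChIP reads against 30 and 32 input reads (1.01 ± 0.42, adjusted p = 0.0484), which was lost with library totals (adjusted p = 0.101) and with the replicate block (adjusted p = 0.0821). Cd3e had 13 and 10 against 25 and 42 (adjusted p = 0.178) and Cd3g 5 and 7 against 23 and 31 (adjusted p = 0.921), and the windows of Cd3d and Cd3g overlap. The zeta chain Cd247 had 6 and 4 against 21 and 26 (adjusted p = 0.983). Cd2, an adhesion receptor of T cells, had 9 and 12 against 25 and 33 (adjusted p = 0.169). The inhibitory receptors Cd5 and Cd6 had log2 ratios of 0.02 and −0.45. Cd7, an immunoglobulin-like protein of T and NK cells, was below input with 4 and 0 ChIP reads against 31 and 34, which the replicate block ended (adjusted p = 0.0936). Of the 55 pairs in this list, 27 had an interval above 1, unadjusted, most of them with Cd8a as the higher or Cd4 or Cd7 as the lower member.

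Among costimulatory and activation receptors of T and NK cells, H3K9me2 was above input at 1 of 6 and below at 0, with a median log2 ratio of 0.49. The share above, 16.7%, was near the 18.6% of all promoters, and 17.0% of all were below. That 1 was Cd226, an adhesion receptor of NK cells, with 8 and 21 ChIP reads against 18 and 31 (1.48 ± 0.43, adjusted p = 0.00366). The call was lost without the ChIP library of v134 (log2 fold change 0.91) and without the input library of v102 (1.52) or of v134 (1.39). Cd28, the main costimulatory receptor of T cells, had 8 and 12 against 22 and 30 (adjusted p = 0.138). Cd27 was the lowest, with 9 and 3 against 33 and 51, and its log2 ratios of 0.17 and −1.46 fell on either side of the all-promoter medians. Cd69, Cd96 and Cd160 had log2 ratios of 0.75, 0.21 and 0.24.

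The SLAM family, receptors by which leukocytes recognise each other, held the highest member. Cd48 had 19 and 14 ChIP reads against 14 and 16 input reads (2.38 ± 0.46, adjusted p = 3.6e-06), a log2 ratio at the 97.5th percentile of all promoters. Its relative Cd84 had 17 and 26 against 28 and 32 (1.73 ± 0.38, adjusted p = 8.64e-05). Cd244, the receptor that binds Cd48, had 7 and 4 against 21 and 53 and did not pass the test (adjusted p = 0.512). Cd48 was 7.40 times (3.31 to 16.5) and Cd84 4.82 times (2.29 to 10.2) as high as Cd244, the lowest of the 3, without adjustment. All 3 lie in a single cluster.

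This cluster was examined within 300 kb of the Cd48 start (chromosome 1, start 171682009). The SLAM genes without a Cd symbol were also high: Slamf1 had a log2 ratio of 2.16, Ly9 1.54, Slamf6 1.36 and Slamf7 0.74. Slamf1, 85.1 kb from Cd48, had 32 and 45 ChIP reads against 24 and 54. Cd244, 123 kb on the other side, was at −0.36, the lowest of these 7 SLAM promoters.

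**Figure D4:**
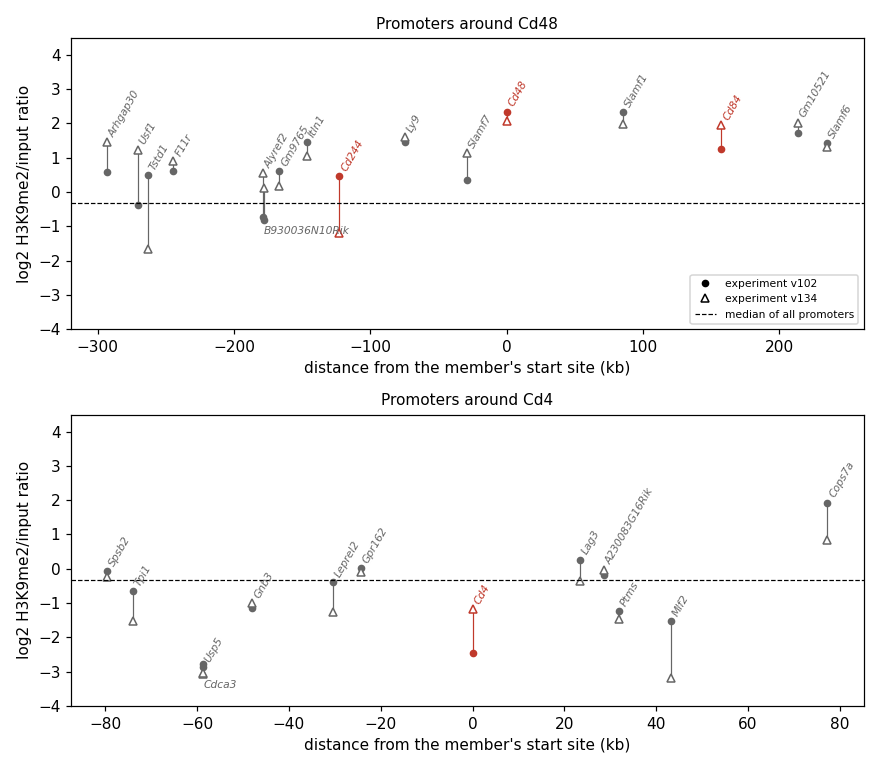
Log2 H3K9me2/input ratio (y axis) of every promoter of the table around Cd48 (upper panel) and Cd4 (lower panel) by distance from its start site in kb, with circles for v102, triangles for v134, members in red, and the median of all promoters dashed. Most SLAM promoters around Cd48 lie above the dashed line. Around Cd4 the neighbours lie on both sides of it. Cd4 is below, and Cops7a, Lag3, Gpr162, Spsb2 and A230083G16Rik are above in the mean of both experiments.

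The surroundings of other members were compared with the median of all promoters. All 9 members above input that had another promoter within 100 kb, without overlap, had a neighbour median above that of all promoters, as did 80.6% of all promoters above input. Among members below input, this held for 3 of 8, against 25.6% of all promoters below input. Neighbours could still lie well under a member above input. Cd8a was at 1.88 with a neighbour median of 0.85, Cd33 at 1.57 with 0.11 and Cd3d at 0.90 with 0.01. Cd4 (chromosome 6, start 124888221) lay among promoters with few ChIP reads: Usp5 and Cdca3 had 0 in both experiments and Mlf2 1 and 0. Its relative Lag3, 23.5 kb away, was at −0.04, and Cops7a, 77.3 kb away, at 1.38. Cd53 had a single neighbour, the odorant receptor gene Olfr266, at 1.87. Cd163 lay between Vmn2r27, a vomeronasal receptor gene, at 1.38 and 1700013D24Rik at 1.26. Cd163l1 lay by Olfr524 at 1.55 and 5830411N06Rik at 1.79, while its other neighbours within 100 kb were lower, Sprn at 0.57, Olfr523 at 0.04, Olfr522 at −0.75 and Mtg1 at −2.22.

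Cd55 and Cd9 lay below the few promoters within 100 kb whose windows did not overlap theirs. Cd55, which dismantles complement convertases, was at −1.74, while Daf2, the second mouse gene of the same kind 39.7 kb away, was at 2.03 with 17 and 13 ChIP reads against 12 and 20. The genes are close relatives and reads shared between them could have been split in counting. The only such promoter near Cd9 was Vwf, which encodes the von Willebrand factor of endothelium, 52.0 kb away. It was at 0.81, against −1.73 for Cd9, with 1.38 in v102 and 0.24 in v134, and was not called (edgeR adjusted p = 0.0966).

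Several members of a list of phagocyte receptors and related scavenger proteins were marked. The list was drawn up on general knowledge, and which cells make its members was not checked here. H3K9me2 was above input at 4 of 10 (40%, against 18.6% of all promoters) and below at 1 (10%, against 17.0%), with a median log2 ratio of 0.45. Cd163, the haemoglobin scavenger receptor of macrophages, had 15 and 23 ChIP reads against 24 and 38 (1.54 ± 0.39, adjusted p = 0.000809). Its homologue Cd163l1 had 20 and 21 against 18 and 37 (1.85 ± 0.39, adjusted p = 3.7e-05). Cd5l, a macrophage protein with scavenger domains, had 12 and 19 against 34 and 31 (1.13 ± 0.41, adjusted p = 0.0218). Its call was lost with library totals (adjusted p = 0.0536) and in DESeq2 (adjusted p = 0.187). Cd33, a sialic acid-binding lectin, had 18 and 18 against 15 and 45 (1.57 ± 0.40, adjusted p = 0.000785), with a RefSeq start 11257 bases from the GENCODE one.

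The lipopolysaccharide coreceptor Cd14 was the only 1 of these below input, with 3 and 1 ChIP reads against 30 and 41 (−1.88 ± 0.70, adjusted p = 0.0258, and 0.0584 with the replicate block). Cd68, the endosomal glycoprotein used to stain macrophages, had 6 and 0 against 24 and 54 (adjusted p = 0.0621), and its experiments disagreed, with log2 ratios of 0.10 and −3.54. The others, Cd177, Cd302, Cd36 and Cd207, had log2 ratios between −0.34 and 0.64.

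The B cell receptor group had no call in either direction, where 18.6% of all promoters were above input and 17.0% below. Its 6 members had a median log2 ratio of −0.60, and 52 ChIP and 376 input reads in all. The receptor's signalling chains Cd79a and Cd79b had 5 and 3 ChIP reads each, against 17 and 45 and against 18 and 40. The inhibitory lectin Cd22 had 3 and 4 against 20 and 51 (−1.04 ± 0.61, adjusted p = 0.159). Cd180 was the highest, with 7 and 12 against 17 and 62 (adjusted p = 0.67). The experiments differed in this group: its summed ratio relative to all promoters was 0.980 in v102 and 0.425 in v134.

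Among the B7 family and the TNF ligands and receptors, 0 of 6 were above input and 1 was below (16.7%), against 18.6% and 17.0% of all promoters. Cd276, a B7 protein made by many tissues, was below input with 1 and 3 ChIP reads against 23 and 60 (−2.06 ± 0.68, adjusted p = 0.0109, and 0.0327 with the replicate block). Cd86 and Cd80, the ligands of Cd28 on antigen-presenting cells, had 9 and 19 against 24 and 45 and 10 and 12 against 19 and 45 (adjusted p = 0.0587 and 0.176). Cd86, the highest, was 8.42 times (2.82 to 25.2) the ratio of Cd276, the lowest, and 7 of the 15 pairs had an interval above 1, unadjusted. Cd40, Cd70 and Cd274, the last of which is the ligand of the checkpoint receptor PD-1, had log2 ratios of −0.52, −0.27 and −1.16.

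The CD300 and CD200 receptor clusters, of 3 and 5 members, had none past the test, where 18.6% of all promoters were above input and 17.0% below. The 3 CD300 receptors, which are myeloid receptors for membrane lipids, had a median of 0.87, from −0.39 at Cd300a to 0.88 at Cd300e. Cd200r2, an activating homologue of the inhibitory Cd200r1, had 7 and 12 ChIP reads against 15 and 28 (adjusted p = 0.0772). Cd200r1 itself had 5 and 0 against 19 and 54 (adjusted p = 0.0532), and its log2 ratio was 0.20 in v102 and −3.54 in v134. Cd200r3 and Cd200r4 were at 0.61 and 0.84, and the ligand Cd200 at −0.30. Cd200r2, the highest of the 5, was 6.45 times (2.25 to 18.5) the ratio of Cd200r1, the lowest, without adjustment. Both lie in a single cluster on chromosome 16.

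Antigens of complement control, stroma and lipid presentation had no call above input. Of 4 complement regulators 0 were above and 1 was below input (25%), against 18.6% and 17.0% of all promoters. That 1 was Cd55, with 0 and 2 ChIP reads against 19 and 29 (−2.28 ± 0.92, adjusted p = 0.0402, and 0.0989 with the replicate block). Cd46, which in the mouse is mainly a sperm protein, had 0 and 5 against 19 and 41. The protectin genes Cd59a and Cd59b were at −0.25 and 0.07.

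None of the 6 endothelial, stromal and stem cell antigens was called, against 18.6% of all promoters above and 17.0% below, and their median was −0.73. Cd34 and Cd44, a progenitor marker and the hyaluronan receptor, were at −0.47 and −0.74, and Cd248 and Cd109 at −0.73 and −0.77. Cd24a was the lowest at −0.87. Cd93, an endothelial and myeloid receptor, had 2 and 17 ChIP reads against 27 and 41, so that the experiments disagreed, at −1.29 and 1.02. The CD1 genes, which present lipids to T cells, were at 0.50 for Cd1d1 and −0.28 for Cd1d2.

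Members outside these groups had no call above input. Cd101, an inhibitory receptor of myeloid cells and T cells, had 9 and 20 ChIP reads against 29 and 41 (adjusted p = 0.0552). Cd83, a marker of mature dendritic cells, had 4 and 1 against 30 and 41 (adjusted p = 0.0504). Cd74, the invariant chain of MHC class II, and Cd52, a small lymphocyte glycoprotein, were at −0.01 and −0.08, close to the ratio of the library totals. Cd74 was at 0.41 in v102 and −0.42 in v134. The ectoenzyme Cd38 and the adhesion receptor Cd97 were at −0.42 and −0.33. Cd164l2 was at −1.10.

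The lowest of all members was Cd164, a sialomucin of many cell types, with 0 and 2 ChIP reads against 27 and 51 input reads (−2.97 ± 0.82, adjusted p = 0.00207, and 0.0159 with the replicate block). The integrin-associated protein Cd47, the transcobalamin receptor Cd320 and Cd99l2 had log2 ratios of −0.73, −0.73 and −0.77 and did not pass the test.

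Over the whole table, the H3K9me2/input ratio was lower in windows with more CG dinucleotides (the counted window spans 2 kb around the start), and the classes differed in that number. The median was 23.5 CG in restricted, 63 in widely expressed and 45 in mixed windows, and 57 over all promoters. These medians are over all members of a class. In the comparisons that follow, members whose RefSeq start lay over 1000 bases away, 10 of the 80, were left out. Among all promoters with fewer than 57 CG, the median log2 ratio was 0.30 and 29.9% were above input, and with 57 or more it was −0.90 and 4.74% were above. The 42 restricted windows with fewer than 57 CG had a median of 0.30, the same as all such promoters, and 9 (21.4%) were above input. The 7 widely expressed windows with 57 or more had a median of −1.67, and 4 were below input (57.1%, against 27.4% of all such promoters).

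On either side of 57 CG few members of both classes could be compared, and their CG content was still unlike. The 4 widely expressed windows with fewer than 57 CG (Cd44, Cd59a, Cd99l2 and Cd320) had a median of −0.73, below the 0.30 of the restricted ones. These 4 held 40 to 55 CG, whereas the median of the whole restricted class was 23.5. Over all promoters, the bins that start at 40 and 50 CG had medians of −0.26 and −0.34, and the bin that starts at 20 CG had 0.02. The 3 restricted windows with 57 or more (Cd14, Cd70 and Cd83) had a median of −1.43, against the −1.67 of the widely expressed ones. Once the GC trend was taken out, the medians were 0.19 for restricted, −0.43 for widely expressed and −0.04 for mixed antigens. That trend is in GC content and not in the number of CG, and the part of CG number in the class difference was not tested.

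Single members departed from the trend in both directions. Cd48, with 30 CG, had log2 ratios of 2.35 and 2.06 in v102 and v134 and Cd8a, with 39, of 2.17 and 1.59, above the upper quartile of 0.58 of promoters with 30 to 39 CG. Cd4, with 24 CG, had log2 ratios of −2.46 and −1.19, below the lower quartile of −0.75 of promoters with 20 to 29 CG. Cd68, with 22 CG, lay below it in v134 and not in v102. Cd53, with 5 CG, lay within the middle range of promoters with as few.

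**Figure D5:**
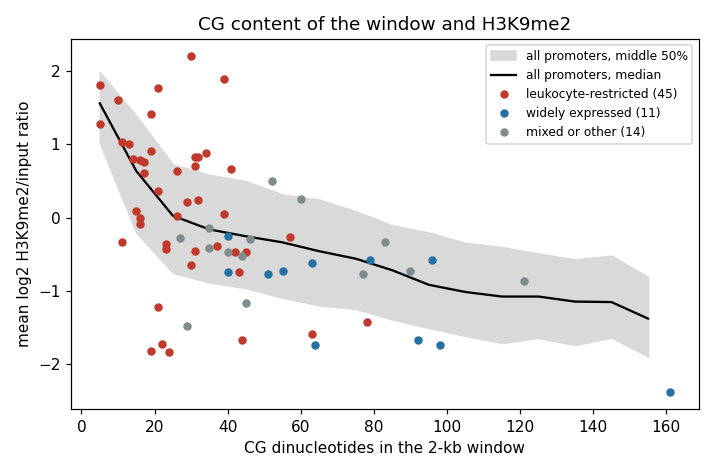
Mean log2 H3K9me2/input ratio (y axis) against the number of CG dinucleotides in the 2 kb window (x axis) for 70 members, with the median (line) and the middle 50% (grey band) of all promoters. Most restricted antigens (red) lie at the left, where the band is high, and most widely expressed ones (blue) lie further right, and Cd48 and Cd8a lie above the band.

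CD antigens under other symbols were read from the same fit. Of 19 leukocyte antigens, H3K9me2 was above input at 7 (36.8%, against 18.6% of all promoters) and below at 1 (5.26%, against 17.0%), with a median log2 ratio of 0.42. Ms4a1, the B cell antigen targeted by rituximab, was the highest at 1.93, with 19 and 21 ChIP reads against 20 and 25. Itgal, the alpha chain of a lymphocyte integrin, was below input with 2 and 1 against 30 and 54 (−2.51 ± 0.72, adjusted p = 0.0034). Of 16 widely expressed antigens, 2 were above (12.5%) and 4 below (25%), with a median of −0.66. The 2 above were Lamp1, a lysosomal membrane protein, with 18 and 12 against 25 and 27 (1.45 ± 0.42, adjusted p = 0.00393), and Igf2r, an imprinted receptor, with 12 and 10 against 21 and 22 (1.27 ± 0.48, adjusted p = 0.0278). Both windows are rich in CG, with 118 and 125. Lamp2 had 0 ChIP reads in both experiments, against 10 and 20 input reads.

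The promoters of a few cell type markers are set beside these values. Over all promoters, 18.6% were above input and 17.0% below, and sets of 2 to 5 genes cannot be told from these shares. Of the leukocyte markers, Ptprc had 15 and 39 ChIP reads against 18 and 56 and was above input (1.82 ± 0.36, adjusted p = 6.54e-06), and Itgb2 was not called. Of 5 smooth muscle markers, Myh11, the smooth muscle myosin, had 0 ChIP reads in both experiments against 19 and 41 input reads and was below, and Smtn was above with 15 and 34 against 22 and 58. Acta2, Tagln and Cnn1 did not pass the test. Of 3 endothelial and 3 adventitial markers, 0 were above and Pecam1 and Pdgfra were below (edgeR adjusted p = 0.0478 and 0.0167). Relative to all promoters, the summed ratio was 2.40 in v102 and 2.34 in v134 for the leukocyte markers, and 0.642 and 1.00 for those of smooth muscle. Single genes dominate both sums. Smtn held 15 and 34 of the 63 smooth muscle ChIP reads, while Myh11, Acta2, Tagln and Cnn1 had log2 ratios of −2.77, −1.13, −0.95 and −1.77. Ptprc held 15 and 39 of the 69 ChIP reads of the leukocyte markers. The part of cell composition in the CD antigen values was not tested.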

How the data were processed

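H3K9me2 ChIP and input DNA were sequenced in 2 experiments on mouse aortic media. The authors trimmed reads with Trim Galore 0.4.2 and Cutadapt 1.9.1, aligned them to GRCm38 with Bowtie2 2.2.7, per the labels and methods, and counted them within 1 kb of each start site in SeqMonk. The deposited counts are raw, and the deposited ratio is summed ChIP over summed input reads, without scaling for library size, and was used only to check the counts. The annotation release and duplicate handling were not given in the sources used here. The lowest summed input in the table was 21 reads.

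Counts of all 26354 promoters were fitted with edgeR 4.0.16 (R 4.3.3; TMM, quasi-likelihood test, Benjamini-Hochberg threshold 0.05), with DESeq2 1.42.0 as an alternative. A standard error is the log2 fold change divided by the square root of F. The fit was tested on simulated data. Positions and base composition came from GENCODE by symbol (78 of 80) or older symbol (2), and promoter sequences from RefSeq, so a start may differ from that counted. Windows of 13 members overlap another. Log2 ratios add 1 read, and the GC trend is a lowess fit (fraction 0.3). Summaries were made in Python 3.11.15 (pandas 2.3.3, numpy 2.4.6), trends in statsmodels 0.14.6, intervals in scipy 1.17.1 and plots in matplotlib 3.10.9.

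The labels number the experiments and the methods give each ChIP its input. The differences between experiments correlated at 0.104 between ChIP and input across promoters, and the fit without block is the main one. Members, classes, lists and tests were chosen with earlier results of these data known, and Cd97 was classed once the symbols in the table were read. The promoters named are the tetraspanins, the CD2, CD3, CD4 and CD8 genes, the B cell receptor group, the 6 highest and 6 lowest called members, members at 0 ChIP reads in both experiments (there were none), the ends of each group, and, of antigens under other symbols, the ends and those called against their class. The values of 1 member enter the counts and summaries but are not reported here singly. Members named beyond that rule, and promoters near members, were chosen after their values were seen.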

Additional observations from a re-analysis of the deposited data

How the results depend on the processing

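No called value and no difference between classes changed direction. Among members without a call the sign could turn: Cd3g went from 0.08 to −0.06 on the log2 scale with library totals, and without the ChIP library of v134 Cd93 went from 0.39 to −1.55, Cd27 from −0.54 to 0.29 and Cd244 from −0.45 to 0.15, and Cd1d2 went from −0.97 to 0.16 without the input library of v134. Cd59b, Cd180, Cd79b and Cd81, none of them called, also turned sign in at least 1 fit. The number of members above input was 10, and 8 with library totals, 9 with the replicate block, 7 with DESeq2, 9 with a minimum of 20 reads per input (5 of them among the 10, since only 44 members pass), 10 without mitochondrial windows and 9 without overlapping windows. The number below input was 8, and 11 with library totals, 2 with the replicate block, 0 with DESeq2 (2 at an unadjusted p under 0.05, against 12 in edgeR), 2 with that minimum, 8 without mitochondrial windows and 6 without overlapping windows. DESeq2 gave no adjusted p at 53 of the 80 members, among them all 8 below input. Over all promoters the share above input was 18.6% in the main fit and 11.6% to 18.9% in the other fits with all libraries. The share below was 17.0% and 0.102% to 21.5%. Fits without 1 library were chosen after seeing the data and leave a single library of that kind. The TMM scaling moved the median promoter's log2 fold change by 0.14, to −0.35. The difference of the medians of restricted and widely expressed antigens, 1.04, was 1.16 to 1.64 in single experiments, 0.58 with a pseudocount of 5 and 0.62 with the GC trend removed. It was 0.75 with the minimum per input, 1.11 without overlapping windows and 0.97 with mixed antigens counted as widely expressed. The summed ratio between these classes, 3.39, was 2.72 to 4.74 in single experiments and 2.31 with mixed antigens counted as widely expressed. Of the 40 members chosen by the naming rule, 6 lost their call with the replicate block, 1 with library totals and 0 without mitochondrial windows, and outside that rule Cd5l lost its call with library totals and Cd7 with the replicate block. Where no cause is named, the cause was not tested. The 8 members below input had 0 to 4 ChIP reads in each library, and the part of depth was not tested.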
